A study of Mus musculus with 6 samples.

Results

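Glycolysis and hypoxia genes were followed in single-cell RNA libraries of mouse brain. The set holds 32 of the 33696 genes in the deposited gene tables, and each was found by its symbol. It takes in the enzymes of glycolysis, the carriers that move glucose and lactate across membranes, lactate dehydrogenase, and a hypoxia factor with its best known targets. The study made 6 libraries from dissociated brain cells with droplet kits that read the 3' ends of transcripts. There were 2 libraries in each of 3 groups: wild type given vehicle (WT vehicle), wild type given bilirubin (WT bilirubin), and a line labelled TRPM2 Mg KO given bilirubin (called the knockout below). Bilirubin is the breakdown product of haem, and TRPM2 is a calcium-permeable channel opened by oxidative stress. The sources used here do not spell out "Mg" and state no age, sex, dose, time or brain region. They also do not say whether the libraries of a group came from different animals, so every p-value below rests on a spread between libraries that may be technical.

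Glycolysis splits glucose into pyruvate, with an early phase that spends ATP on phosphorylated sugars and a late phase that earns it back. Lactate dehydrogenase turns pyruvate into lactate and back, and brain endothelium, astrocytes and neurons exchange glucose and lactate through dedicated carriers. When oxygen is short, the factor HIF1 is stabilised, pairs with ARNT on short DNA elements and raises the transcription of many of these genes.

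The libraries held 4137 to 24309 cell barcodes and 24165563 to 63402551 UMIs (counted molecules), and the median barcode held 1149 to 2071 UMIs. After filters and doublet removal 79754 of 95014 barcodes stayed, and 980 barcode sequences occurred in more than 1 library. Cells were assigned to a class by a count of marker genes, none of them a member, which placed 33828 cells (42.4%). The names below stand for these gates. There were 7 classes with at least 20 cells in every library: microglia (9785 cells), endothelial cells (3691), mural cells of vessel walls (411), choroid plexus epithelium (11851), ependymal cells (1486), astrocytes (3913) and oligodendrocytes (795). In these classes 18.4% to 49.9% of cells sat at the edge of the gate. The median UMIs of a class's own markers were 5 to 40 across libraries, and those of all other classes' markers reached 24, so each class sum also holds transcripts of other cells. WT bilirubin replicate 1 and the knockout libraries had median mitochondrial shares of 7.23%, 5.45% and 3.80%, against 0.657% to 1.06% in the other 3. Trpm2 itself gave 24 to 93 UMIs per library in microglia. Its level there was 20.5 and 14.1 CPM in WT vehicle, 17.7 and 33.1 in WT bilirubin and 14.3 and 17.4 in the knockout, which overlap (log2 fold change -0.67, SE 0.38, adjusted p 1.0 in edgeR). A 3' tag outside a deleted stretch would not show a deletion.

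Where the members were expressed was asked first, over all 6 libraries. Each class was compared with the mean of the other 6 within libraries by the quasi-likelihood test of edgeR, with adjusted p under 0.05 as the threshold for a call. CPM are UMIs per 1000000 UMIs of the class sum, scaled here by TMM over all class sums together. Of 210 tests on 30 members, 116 passed (44 higher, 72 lower in the class), which is 55.24%, beside 44.4 percent of the tests over all genes. Slc16a3 and Egln3 were below the count filter in this comparison.

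**Figure D1:**
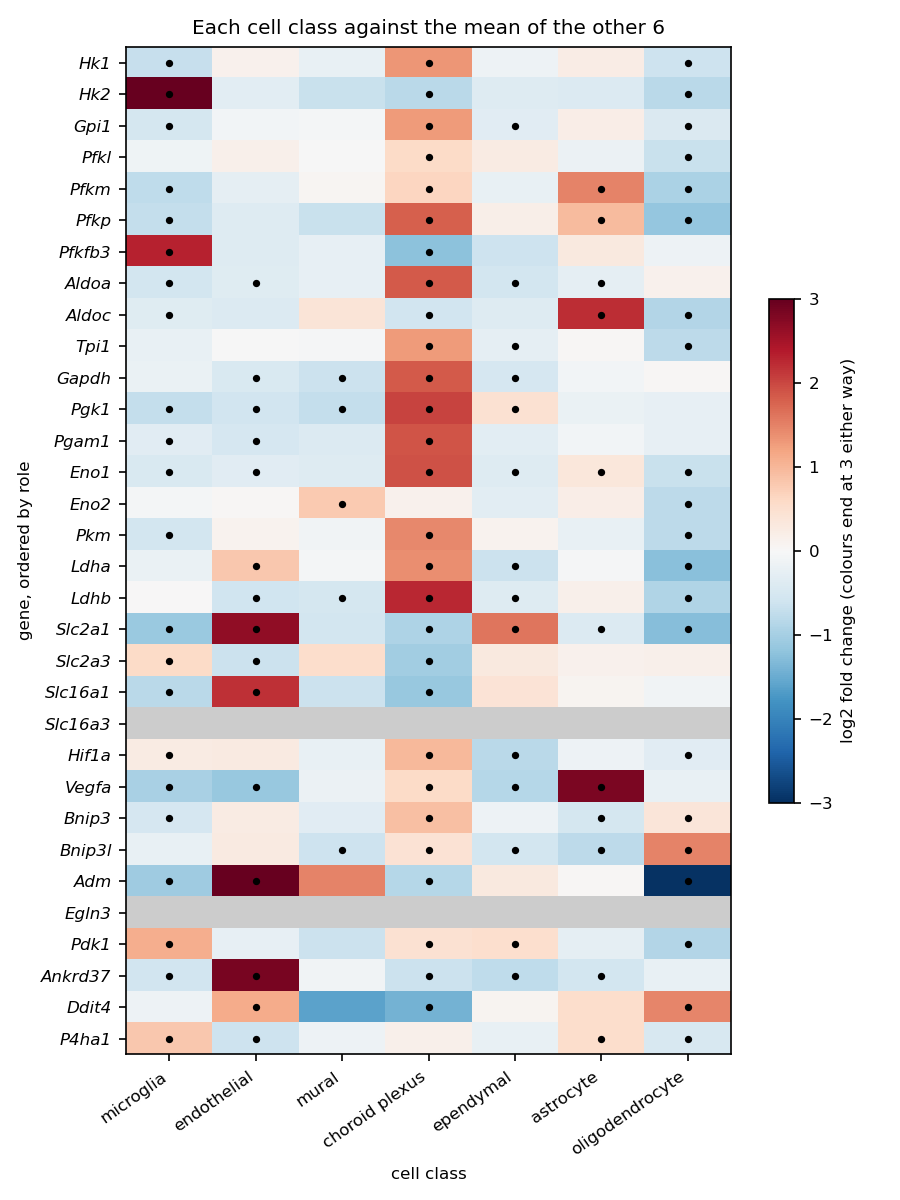
Log2 fold change of each member (rows, ordered by role) in each cell class against the mean of the other 6 classes, over 6 libraries, with colours from blue (lower) to red (higher). A dot marks an adjusted p under 0.05, and grey marks members that were not tested. Hk2 in microglia (3.39) and Adm in endothelial cells (3.09) stand out, and the enzymes of late glycolysis form a red block in choroid plexus.

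Choroid plexus epithelium, which secretes cerebrospinal fluid, carried the most members, with 19 higher and 9 lower of 30 (background over all genes 38.3 percent higher and 37.2 percent lower). All members had a median log2 fold change of 0.61 there, and all genes one of -0.03. In the late, energy-yielding phase, 5 of 6 enzymes were higher, with a median of 1.86. Ldhb, the heart-type lactate dehydrogenase subunit, stood at 1182 and 2347 CPM in WT vehicle, 3302 and 2078 in WT bilirubin and 3897 and 1775 in the knockout. No other class exceeded 879 CPM in any library (log2 fold change 2.26, SE 0.10, edgeR adjusted p 8.3e-24). Pgk1, phosphoglycerate kinase, had a mean of 586 ± 242 CPM (SD, n = 6; log2 fold change 2.02), and Eno1, the ubiquitous enolase, 407 ± 138 (1.91). The 9 lower members were Hk2, Pfkfb3, Aldoc, Slc2a1, Slc2a3, Slc16a1, Adm, Ankrd37 and Ddit4. Ddit4, a stress-induced inhibitor of mTORC1, was at -1.42, and Pfkfb3, which makes the activator of phosphofructokinase, at -1.22.

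The choroid plexus values depend on how sums of such unlike classes are scaled. Its TMM factors were 0.587 to 0.698, and with plain totals of UMIs the median of all genes there moved by -0.77, from -0.03 to -0.79. On that scale 13 members were higher and 13 lower (background 16.1 percent higher and 67.2 percent lower), and the median of the members was -0.15. A change of scale moves the genes of a class nearly together, so places relative to the median gene could hardly change. On either scale 21 of 30 members lay above that gene. Of the 28 calls, 22 held. The higher ones among them included Ldhb (1.49), Pgk1 (1.26), Eno1 (1.16), Gapdh (1.07), Aldoa (1.08) and Pfkp (1.03). Bnip3 lost its call, and Pdk1, Pfkl, Pfkm, Bnip3l and Vegfa changed sign, to values between -0.32 and -0.11. In the other classes no called member changed sign. Totals gave 9 higher and 7 lower in place of 6 and 9 in endothelial cells (background 19.3 percent higher and 13.2 percent lower). They gave 3 and 1 in place of 1 and 4 in mural cells (background 8.70 and 1.41 percent). In ependymal cells they gave 6 and 6 in place of 3 and 11 (background 27.1 and 11.8 percent). In astrocytes they gave 11 and 2 in place of 6 and 5 (background 25.7 and 8.85 percent). With size factors from medians of ratios, astrocytes had 7 higher and 2 lower.

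Endothelial cells, which form the blood-brain barrier, had their highest fold changes in carriers and hypoxia targets. There were 6 members higher and 9 lower (background 16.5 percent higher and 17.0 percent lower), and the median of the members, -0.16, was near that of all genes, -0.06. Slc2a1, the GLUT1 carrier that brings glucose across the barrier, was measured at 368 and 258 CPM in WT vehicle, 428 and 711 in WT bilirubin and 308 and 214 in the knockout. It was higher than in every other class in 6 of 6 libraries (log2 fold change 2.66, SE 0.13, edgeR adjusted p 6.45e-22). Slc16a1, the lactate carrier MCT1, had a mean of 144 ± 78.5 CPM (2.20). Adm, which encodes the vasodilator adrenomedullin, had 46.7 ± 27.9 CPM (3.09, SE 0.21), and Ankrd37, an ankyrin-repeat gene induced by HIF1, 199 ± 93.9 (2.85, SE 0.16). Each of these 4 genes was highest in endothelial cells in 6 of 6 libraries. Ldha, the muscle-type lactate dehydrogenase subunit, was higher by 0.81 and Ddit4 by 1.11. The 9 lower members were Vegfa, the ligand that endothelium receives (-1.14), the carrier Slc2a3 (-0.65), the hydroxylase subunit P4ha1 (-0.63) and the enzymes Ldhb (-0.60), Pgk1, Pgam1, Gapdh, Aldoa and Eno1. Slc2a3 and Eno1 lost their call with totals of UMIs. None of the 7 early-phase genes passed in either direction, and 4 of 6 late-phase enzymes were lower.

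The promoters of these 6 endothelial members show where the HIF1 element could be read in their sequence. Windows of 250 bases before to 50 after a transcription start were taken from RefSeq on GRCm38.p6, whose table matched 30 of the 32 members with 44 windows. The core elements ACGTG and GCGTG were searched on both strands, with the palindrome CACGTG counted as 1 site. ACGTG occurred in 24 of 44 member windows (54.5%), against 19.6% of all 32851 windows. GCGTG occurred in 25 (56.8%), against 32.4%, and either element in 35 (79.5%), against 43.8%. The set was chosen in part for known HIF1 targets, and some members have more than 1 window. These percents are therefore no test of enrichment. Capitals mark the matches, on the strand shown or its complement, and a match is a description of the sequence only. The windows are written 5′ to 3′ on the strand of the gene.
Adm, chr7:110627407-110627706, plus strand: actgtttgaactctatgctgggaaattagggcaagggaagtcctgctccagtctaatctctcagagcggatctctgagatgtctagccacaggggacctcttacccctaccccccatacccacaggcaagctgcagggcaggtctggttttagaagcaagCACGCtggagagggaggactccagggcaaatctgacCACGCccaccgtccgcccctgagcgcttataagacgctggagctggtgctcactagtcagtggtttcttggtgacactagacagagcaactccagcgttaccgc
Ankrd37, chr8:45999801-46000100, minus strand: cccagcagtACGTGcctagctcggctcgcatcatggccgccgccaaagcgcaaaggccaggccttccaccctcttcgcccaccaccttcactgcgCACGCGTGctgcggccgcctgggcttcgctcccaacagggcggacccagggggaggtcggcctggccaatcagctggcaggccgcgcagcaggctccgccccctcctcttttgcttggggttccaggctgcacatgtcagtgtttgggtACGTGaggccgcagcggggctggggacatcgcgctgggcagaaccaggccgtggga
Slc16a1, chr3:104638414-104638713, plus strand: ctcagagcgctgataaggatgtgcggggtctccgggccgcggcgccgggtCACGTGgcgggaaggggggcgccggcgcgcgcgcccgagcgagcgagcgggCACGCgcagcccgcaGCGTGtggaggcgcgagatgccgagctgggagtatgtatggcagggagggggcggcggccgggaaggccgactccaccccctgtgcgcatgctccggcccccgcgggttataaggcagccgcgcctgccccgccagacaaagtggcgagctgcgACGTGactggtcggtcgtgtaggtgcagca
Slc2a1, chr4:119108495-119108794, plus strand: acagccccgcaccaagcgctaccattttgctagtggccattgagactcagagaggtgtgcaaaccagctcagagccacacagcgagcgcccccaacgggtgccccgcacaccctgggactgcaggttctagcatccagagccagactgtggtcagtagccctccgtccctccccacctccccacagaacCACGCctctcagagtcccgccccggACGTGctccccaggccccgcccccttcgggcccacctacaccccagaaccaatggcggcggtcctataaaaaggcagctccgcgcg
Ldha, chr7:46845554-46845853, plus strand: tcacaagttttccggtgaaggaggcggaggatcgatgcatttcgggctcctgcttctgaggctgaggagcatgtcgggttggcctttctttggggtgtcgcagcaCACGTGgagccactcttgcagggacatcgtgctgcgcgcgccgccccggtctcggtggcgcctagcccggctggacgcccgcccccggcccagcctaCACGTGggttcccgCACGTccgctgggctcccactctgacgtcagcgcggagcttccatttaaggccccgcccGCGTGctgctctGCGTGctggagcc
Ldha second start, chr7:46846832-46847131, plus strand: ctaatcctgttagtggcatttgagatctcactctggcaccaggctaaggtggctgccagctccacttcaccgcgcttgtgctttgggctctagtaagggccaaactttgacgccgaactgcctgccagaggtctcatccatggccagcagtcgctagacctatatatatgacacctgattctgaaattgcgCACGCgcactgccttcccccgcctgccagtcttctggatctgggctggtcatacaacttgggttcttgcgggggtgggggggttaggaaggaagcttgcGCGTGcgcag
Ddit4, chr10:59951721-59952020, minus strand: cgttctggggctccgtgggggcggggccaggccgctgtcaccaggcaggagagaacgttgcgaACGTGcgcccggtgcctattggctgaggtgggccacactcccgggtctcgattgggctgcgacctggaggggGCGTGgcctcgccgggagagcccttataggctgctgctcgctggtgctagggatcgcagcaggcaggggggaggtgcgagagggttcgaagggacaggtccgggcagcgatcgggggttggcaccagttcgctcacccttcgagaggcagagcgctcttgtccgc
Ankrd37 and Slc16a1 each held 2 ACGTG and 2 GCGTG sites. The first Ldha window held 3 and 2, and the second 0 and 2. Slc2a1 and Ddit4 held 1 of each, and Adm 0 ACGTG and 2 GCGTG sites.

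Microglia, the brain's resident macrophages, had 2 members higher and 4 lower of the 7 of early glycolysis, with a median of -0.54. Hk2, the inducible hexokinase that traps glucose in the cell, was at 620 and 509 CPM in WT vehicle, 345 and 906 in WT bilirubin and 344 and 534 in the knockout. The highest value of any other class in any library was 113 CPM, so the classes did not overlap (log2 fold change 3.39, SE 0.14, edgeR adjusted p 7.24e-25). Pfkfb3 was the other higher one, with 71.5 ± 28.2 CPM (2.30, SE 0.17). The 4 lower ones were Pfkm (-0.75), Pfkp (-0.70), Hk1, the constitutive hexokinase (-0.70), and Gpi1, the phosphoglucose isomerase (-0.54). Pdk1, the kinase that holds pyruvate back from the mitochondrion, was higher, with 41.6 ± 11.7 CPM (1.09). P4ha1, a collagen prolyl hydroxylase subunit, was highest in microglia in 6 of 6 libraries, with 187 ± 35.1 CPM (0.81). Hif1a and Slc2a3, the neuronal-type carrier GLUT3, completed the 6 higher members. There were 16 lower ones (background 25.8 percent higher and 32.6 percent lower), among them Slc2a1 (-1.12) and Adm (-1.08), with a median of -0.35 over the members and -0.09 over all genes.

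Astrocytes were marked by the brain aldolase and by an angiogenic signal, with 6 members higher and 5 lower (background 17.5 percent higher and 19.4 percent lower). Vegfa, which directs vessel growth, was at 100 and 136 CPM in WT vehicle, 131 and 241 in WT bilirubin and 163 and 204 in the knockout. No other class exceeded 45.6 CPM in any library (log2 fold change 2.82, SE 0.13, edgeR adjusted p 3.01e-22). Aldoc, the aldolase long used as an astrocyte gene, had a mean of 1140 ± 304 CPM (2.22, SE 0.14), and Pfkm, the muscle-type phosphofructokinase, 100 ± 10.2 (1.50). Bnip3l, a receptor for the removal of mitochondria, was lower (-0.79). Ankrd37 was only just past the threshold (-0.54, edgeR adjusted p 0.0499), and it passed in 3 of 13 alternative settings (adjusted p up to 0.229).

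Oligodendrocytes, the myelin-forming cells, had 3 members higher and 18 lower (background 20.3 percent higher and 28.4 percent lower), and a median of -0.55 over the members beside -0.17 over all genes. None of the 7 early-phase genes was higher and 6 were lower. The 3 higher members were Bnip3l with 416 ± 97.9 CPM (1.50, SE 0.11), Ddit4 with 50.3 ± 23.3 CPM (1.46, SE 0.25) and Bnip3, the relative of Bnip3l, with 79.3 ± 14.4 CPM (0.36). Ddit4 stood above all other classes in 2 of 6 libraries only. Adm was lower (-2.97), from 3 UMIs in all 6 libraries.

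Ependymal cells, which line the ventricles, had 3 members higher and 11 lower (background 22.0 percent higher and 21.8 percent lower). Slc2a1 was the leading one, with 200 ± 58.8 CPM (1.61, SE 0.15) and the highest mean after endothelial cells. Pdk1 was higher by 0.50 (passing in 9 of 13 alternative settings) and Pgk1 by 0.46, and Vegfa (-0.86) and Hif1a (-0.80) were lower. Mural cells, the smallest class, had 1 member higher and 4 lower (background 5.34 percent higher and 8.36 percent lower). Eno2, the neuronal enolase, was the higher one (0.80, edgeR adjusted p 0.026), from 43 UMIs, with 0 in 1 library, and it passed in 7 of 11 alternative settings. Summed CPM of 14 neuronal transcripts were 6496 to 37030 in mural cells, and their part in the Eno2 value was not tested. These CPM were scaled within the class over genes past its count filter, so they cannot be ranked against those of other classes. Gapdh (-0.65) and Pgk1 (-0.72, passing in 8 of 11 settings) were among the lower members.

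The 2 members below the count filter gave few molecules. Slc16a3, the lactate exporter MCT4, was at 6.20 to 16.7 CPM in microglia from 233 UMIs. All other classes gave 1 to 36 UMIs of it. Egln3, a prolyl hydroxylase that marks HIF1 for decay and is itself a HIF1 target, gave 1 to 98 UMIs per class. Its mean was highest in ependymal cells, with 5.34 ± 2.90 CPM, and overlapped that of astrocytes, with 3.95 ± 3.09.

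Shares of isozymes within a pair or family do not depend on library scaling. A share was the percent of UMIs of one gene among those of its family in a class sum with at least 20 such UMIs. Of 21 contrasts planned between named classes, 17 gave a value and 13 had all 6 libraries. The exact sign-flip permutation test over 6 libraries cannot give a two-sided p under 0.03125. There were 8 contrasts at that limit (adjusted p 0.0664 over the 17), so none passed, whatever the size of the difference.

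Hk2 made up 91.9% ± 3.18 of Hk1 and Hk2 UMIs in microglia and 46.4% ± 11.4 in endothelial cells (SD, n = 6), with microglia higher in 6 of 6 libraries. The difference, endothelial minus microglial, was -45.6 percentage points (SD 9.79). Ldhb made up 56.1% of lactate dehydrogenase UMIs in endothelial cells and 77.6% in microglia, a difference of -21.5 points (SD 9.27). Endothelial cells thus had the lowest Ldhb share of the 7 classes, and choroid plexus the highest, 83.3%. Of the glucose carriers Slc2a1 and Slc2a3, Slc2a3 held 1.60% in endothelial cells and 25.1% in microglia. Of the lactate carriers Slc16a1 and Slc16a3, Slc16a3 held 1.02% and 31.1%.

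Between choroid plexus and astrocytes the aldolases differed most. Aldoc was 17.7% ± 12.2 of aldolase UMIs in choroid plexus and 74.6% ± 5.10 in astrocytes, lower in choroid plexus in 6 of 6 libraries (difference -56.9 points, SD 13.7). Pfkp, the platelet-type phosphofructokinase, was 59.5% against 43.6% (16.0 points, SD 5.16), and Ldhb 83.3% against 77.3% (6.05 points, SD 1.29), both higher in choroid plexus in 6 of 6. Eno2 was 8.51% against 18.2%. The Eno2 share in astrocytes ran from 6.25% in WT bilirubin replicate 2 to 37.1% in WT vehicle replicate 1. In the same libraries the Aldoc share in choroid plexus ran from 6.10% to 38.9%. The part of RNA from other cells in the shares was not tested. Hk2 was 25.4% against 41.2%, lower in 5 of 6 libraries (exact permutation p 0.0625). The Eno2 and Pfkp shares of endothelial cells and microglia lay within 1.13 points of each other, less than the spread between libraries.

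**Figure D2:**
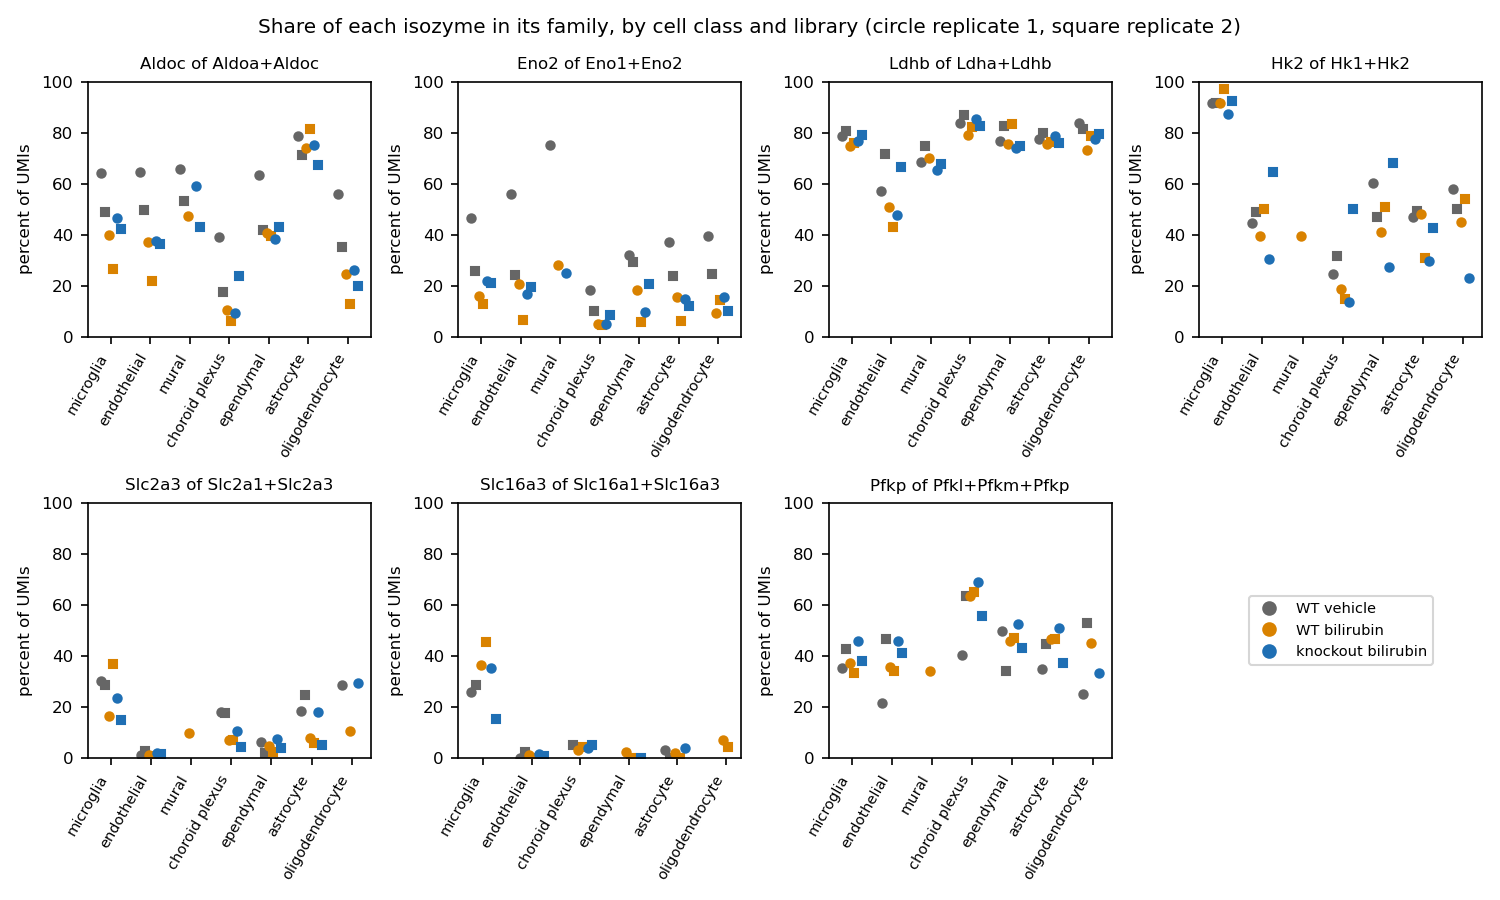
Percent of UMIs that one isozyme contributes to its pair or family (vertical axis) in each cell class, 1 point per library with at least 20 UMIs of the family. The Hk2 share is near 92% in microglia, and the Aldoc share separates astrocytes (74.6%) from choroid plexus (17.7%).

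The effect of bilirubin was then asked by comparing WT bilirubin with WT vehicle, 2 libraries each, in every class and in whole libraries. CPM here are scaled by TMM within the class, over the UMIs of genes past its count filter. No member passed in edgeR in any class, in 190 tests with a background of 0.23 percent, nor in whole libraries, in 32 tests with a background of 0.00526 percent. At an unadjusted p under 0.05 there were 27 of 190 (14.2%, beside 12.4% of all gene tests) and 5 of 32 (15.6%, beside 11.3%). DESeq2 called 3 members in the classes, all in endothelial cells and all higher, where it called 0.23 percent of genes higher, and 0 in whole libraries. The design had little power: in simulated endothelial sums edgeR found 52.8% of 4-fold and 3.19% of 2-fold changes.

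**Figure D3:**
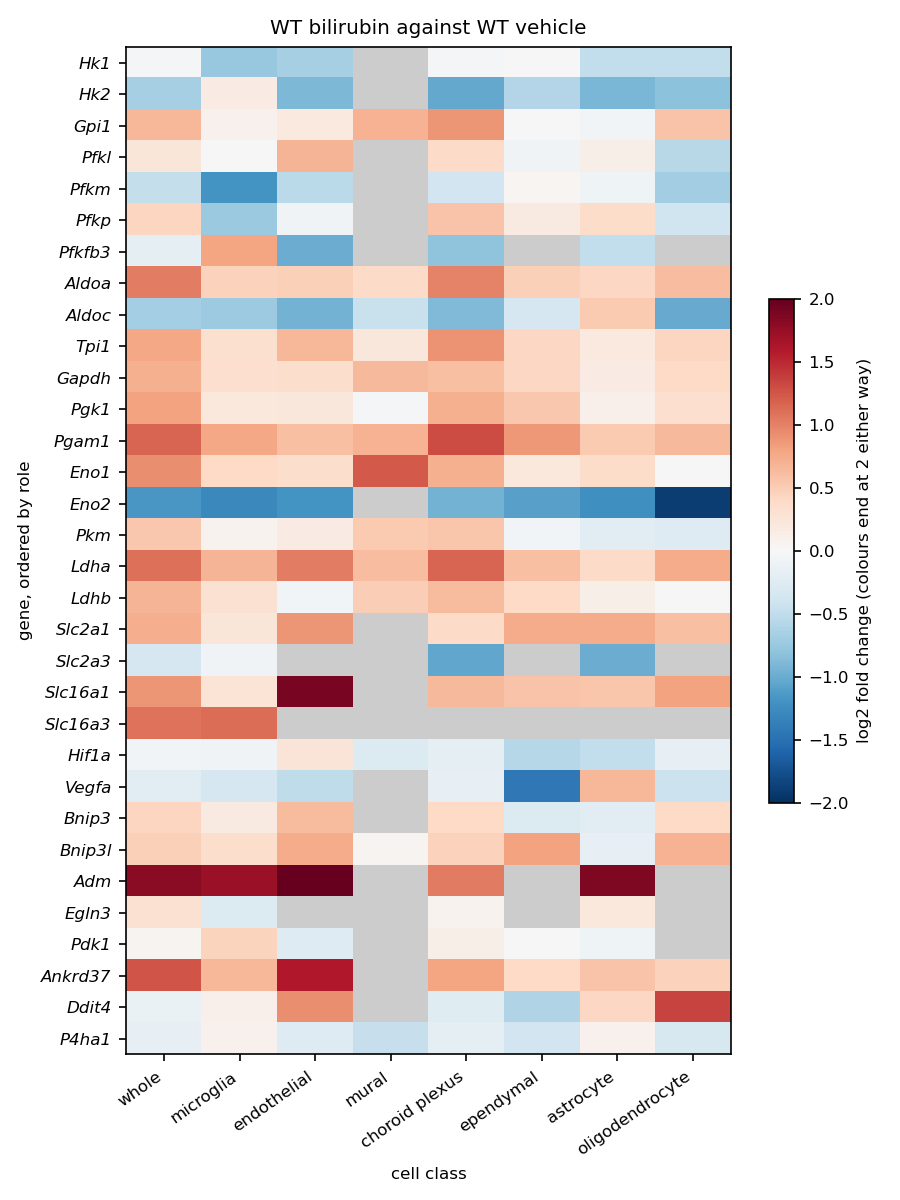
Log2 fold change of each member (rows, ordered by role) in WT bilirubin against WT vehicle, for whole libraries and 7 cell classes, with 2 libraries in each group. Colours run from blue (lower) to red (higher) and end at 2 either way, and grey cells were below the count filter. No value passed the threshold in edgeR. Adm in endothelial cells is the deepest red (2.24), followed by Slc16a1 there (1.89) and Adm in astrocytes (1.87), and Eno2 is blue in every class in which it was tested.

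The members closest to a call were in endothelial cells. Here and below, overlap of libraries is described for named members only, and its share over all genes is not given. Adm stood at 11.8 and 20.1 CPM in WT vehicle, 79.7 and 78.0 in WT bilirubin and 58.9 and 41.5 in the knockout. All 4 bilirubin libraries lay above both vehicle libraries, which held 5 and 14 Adm UMIs. The log2 fold change for bilirubin was 2.24 (SE 0.44, adjusted p 0.053 in edgeR and 0.0334 in DESeq2). Slc16a1 stood at 66.2 and 58.9 CPM in WT vehicle, 191.9 and 279.9 in WT bilirubin and 162.8 and 134.6 in the knockout, again with no overlap of the bilirubin libraries with vehicle (1.89, SE 0.40, adjusted p 0.0753 in edgeR and 0.00915 in DESeq2). Ankrd37 stood at 61.5 and 123.6 CPM, then 327.9 and 237.4, then 246.9 and 240.0 in the same order, and its groups did not overlap either (1.60, SE 0.42, adjusted p 0.103 in edgeR and 0.0438 in DESeq2). These 3 passed in 11, 8 and 4 of 17 alternative settings each, with values of 1.97 to 2.77, 1.66 to 2.09 and 1.21 to 2.24.

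The makeup of the endothelial sums differed between libraries too. The 10 endothelial gating markers summed to 5132 and 5363 CPM in WT vehicle, 10290 and 11102 in WT bilirubin and 10156 and 5139 in the knockout. The 14 neuronal transcripts summed to 20310 and 7139, 2758 and 1626, and 2983 and 5593 CPM in those same libraries. Counted against the markers instead of all UMIs, Adm had 2.25 and 3.59 UMIs per 1000 marker UMIs in WT vehicle, 7.87 and 7.64 in WT bilirubin and 6.07 and 6.86 in the knockout. On that measure Adm was above vehicle in all 4 bilirubin libraries. Slc16a1 was too, with 12.6 and 10.5, 19.0 and 27.5, and 16.8 and 22.2, while Ankrd37 came close to overlapping, with 11.7 and 22.0, 32.4 and 23.3, and 25.4 and 39.6. The same markers chose the cells, so the measure itself depends on the gate. Transcripts induced early by dissociation summed to 3629 and 3666 CPM in endothelial cells of WT vehicle and to 5355 to 8035 in the other 4 libraries, with 11 of 12 above 0 and 0 called. Their part in the endothelial values was not tested.

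**Figure D4:**
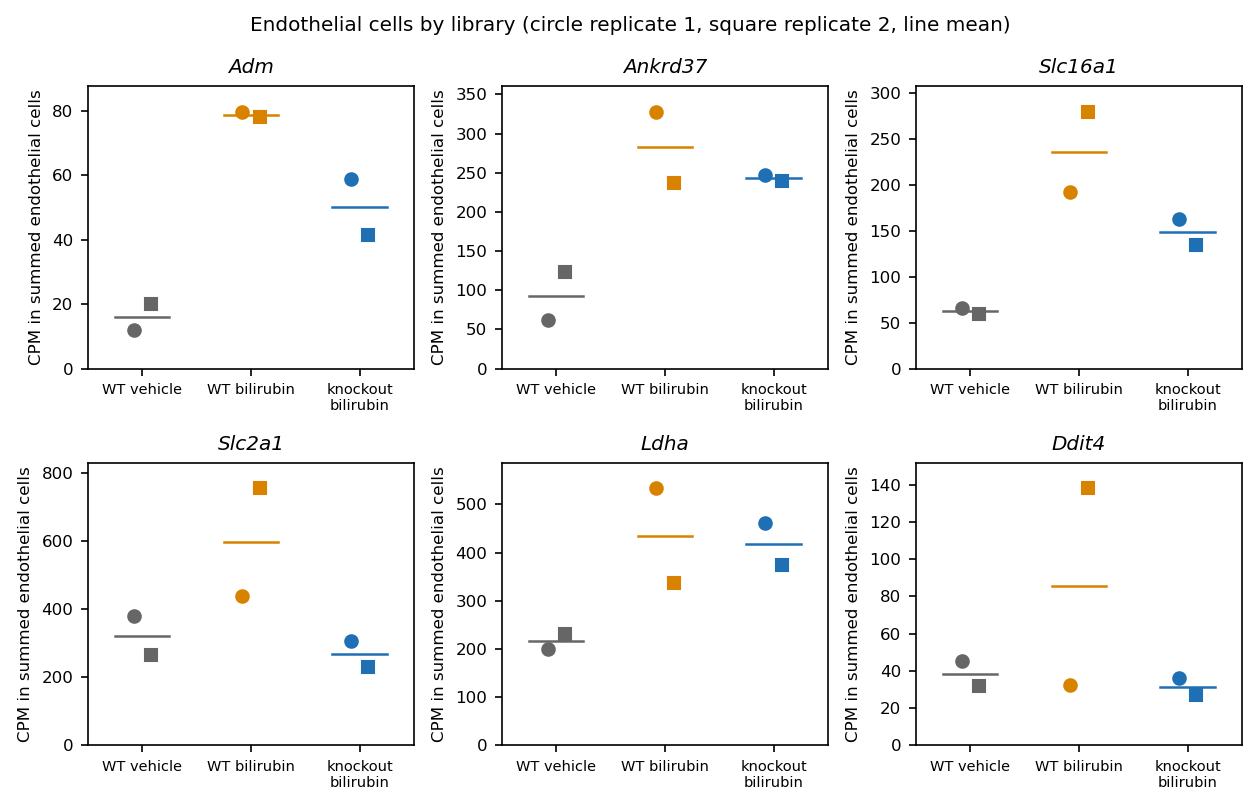
CPM of 6 members in summed endothelial cells, 1 panel per gene, with the 3 groups along the horizontal axis, 1 point per library and a line at the mean of 2. For Adm, Ankrd37 and Slc16a1 all 4 bilirubin libraries lie above both vehicle libraries, while Slc2a1 and Ddit4 are highest in WT bilirubin replicate 2. Slc2a1 in WT bilirubin replicate 1 lies only a little above WT vehicle replicate 1.

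The other endothelial members were less even. Ldha stood at 198.7 and 231.5 CPM in WT vehicle, 533.6 and 336.6 in WT bilirubin and 461.1 and 373.3 in the knockout, without overlap of WT bilirubin and vehicle (log2 fold change 1.03, edgeR adjusted p 0.284). On the marker scale it did overlap, at 37.9 and 41.3 UMIs per 1000 in WT vehicle and 52.7 and 33.0 in WT bilirubin. Slc2a1 stood at 378.5 and 264.5, 436.9 and 754.7, and 306.1 and 230.7 CPM (0.88). Ddit4 was at 138.2 CPM in WT bilirubin replicate 2 and between 26.7 and 44.9 in the other 5 libraries.

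Across classes the enzymes of glycolysis had values in both directions, without passing. Aldoa, Tpi1, Gapdh, Pgam1, Eno1 and Ldha were above 0 in 7 of 7 classes, with medians over classes of 0.37 to 0.69. Other enzymes were mostly below 0: Hk1 (median -0.49), Hk2 (-0.86) and Pfkm (-0.46) were above 0 in 1 of 6 classes each, and Aldoc (-0.73) in 1 of 7. Over all members 120 of 190 values were above 0 (63.2%), beside 52.4% of all gene tests. These classes come from the same 4 libraries and are not independent. In choroid plexus Ldha stood at 147 and 215 CPM in WT vehicle, 528 and 290 in WT bilirubin and 402 and 257 in the knockout (1.17, edgeR adjusted p 0.174). Pgam1, phosphoglycerate mutase, stood there at 105 and 282, 667 and 299, and 669 and 308 (1.30, edgeR adjusted p 0.249). The WT bilirubin libraries lay far apart for these genes, with replicate 1 the higher. Gapdh in microglia, for example, stood at 893 and 1296 CPM in WT vehicle, 2008 and 747 in WT bilirubin and 1506 and 1573 in the knockout. The mitochondrial share of the same 2 WT bilirubin libraries was 7.23% and 0.657%, and its part in these values was not tested.

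Eno2 was below 0 throughout, with values from -1.90 to -0.95 in the 6 classes tested and -1.17 in whole libraries. In microglia it stood at 59.9 and 29.6 CPM in WT vehicle, 23.7 and 11.2 in WT bilirubin and 32.6 and 29.0 in the knockout (-1.29, edgeR adjusted p 0.144). In oligodendrocytes it stood at 42.7 and 31.6, 10.7 and 8.83, and 18.0 and 17.0 (-1.90, edgeR adjusted p 0.0766). WT bilirubin lay below WT vehicle in both classes without overlap. Neuronal transcripts were also lower in WT bilirubin than in WT vehicle: they summed to 16650 and 5715 CPM in microglia of WT vehicle, 2647 and 1447 in WT bilirubin and 3510 and 5492 in the knockout. In oligodendrocytes 0 of 13 tested neuronal transcripts were above 0, and 10 were called (edgeR). Over all classes and both directions 0.23 percent of all gene tests were called, and the share in oligodendrocytes alone is not given. The part of neuronal RNA in the Eno2 values was not tested.

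Adm was above 0 in all 4 classes in which it was tested. In astrocytes it stood at 2.72 and 2.78 CPM in WT vehicle, 10.3 and 10.4 in WT bilirubin and 10.7 and 11.9 in the knockout (1.87, edgeR adjusted p 0.197), from 4 to 17 UMIs per library. In microglia it stood at 1.73 and 1.11, 6.27 and 2.33, and 4.23 and 7.25 (1.73, edgeR adjusted p 0.188), from 5 to 33 UMIs. Slc16a3 in microglia stood at 5.94 and 7.11 CPM in WT vehicle, 12.7 and 16.3 in WT bilirubin and 10.3 and 7.97 in the knockout (1.12, edgeR adjusted p 0.145). In each of these 3 cases the 4 bilirubin libraries lay above both vehicle libraries, without passing. The share of all genes that did so is not given here.

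In whole libraries fewer cells of a class and less RNA per cell cannot be told apart. The 3 members with the smallest p there were Adm, Eno2 and Slc16a3. Adm stood at 2.68 and 2.27 CPM in WT vehicle, 12.5 and 4.59 in WT bilirubin and 12.9 and 18.6 in the knockout (1.80, SE 0.46, edgeR adjusted p 0.358). Eno2 stood at 64.8 and 37.3, 28.0 and 17.2, and 33.7 and 34.5, and Slc16a3 at 2.05 and 2.38, 3.70 and 5.74, and 4.07 and 3.10. Whole libraries had a median over all 32 members of 0.46 beside 0.05 over all genes. The medians within classes were 0.04 to 0.44 over the members and 0.01 to 0.06 over all genes. In whole libraries the 14 neuronal transcripts summed to 19359 and 6584, 3075 and 2534, and 3923 and 6019 CPM, and choroid plexus transcripts to 11039 and 89992, 98466 and 121440, and 73912 and 80738.

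Whether the bilirubin difference was itself different in 1 class was tested by comparing it with the mean of the others. Of 210 such tests on the members 1 passed, where the background was 0.234 percent of all genes, and 19 had an unadjusted p under 0.05 (9.05%, beside 6.65% of all gene tests). The one was Aldoc in astrocytes, with a log2 difference of 1.58 (SE 0.31, edgeR adjusted p 0.0048). In astrocytes Aldoc stood at 1109 and 888 CPM in WT vehicle, 1719 and 1165 in WT bilirubin and 1575 and 968 in the knockout. WT bilirubin lay above WT vehicle there (log2 fold change 0.53, edgeR adjusted p 0.777), and the 6 other classes had values from -1.01 to -0.34. In endothelial cells, for example, Aldoc stood at 490 and 319 CPM in WT vehicle, 322 and 74.4 in WT bilirubin and 256 and 253 in the knockout. The low WT bilirubin values outside astrocytes came from replicate 2, and without that library the difference was 0.75 (edgeR adjusted p 1). Without WT vehicle replicate 1 or 2 it was 1.38 or 1.72 and did not pass (edgeR adjusted p 0.939 and 0.240).

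Astrocyte markers moved alongside. In astrocytes the 12 gating markers summed to 4888 and 4587 CPM in WT vehicle, 5737 and 8049 in WT bilirubin and 6090 and 3617 in the knockout. In endothelial cells, where they mark RNA of other cells, they summed to 796 and 555, 453 and 312, and 521 and 466 CPM. Per 1000 astrocyte marker UMIs, Aldoc was at 213 and 187 in astrocytes of WT vehicle and at 308 and 156 in those of WT bilirubin, which overlap. The background for astrocytes in this test was 0.885 percent of genes higher. The part of RNA from other cells in the Aldoc difference was not tested.

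**Figure D5:**
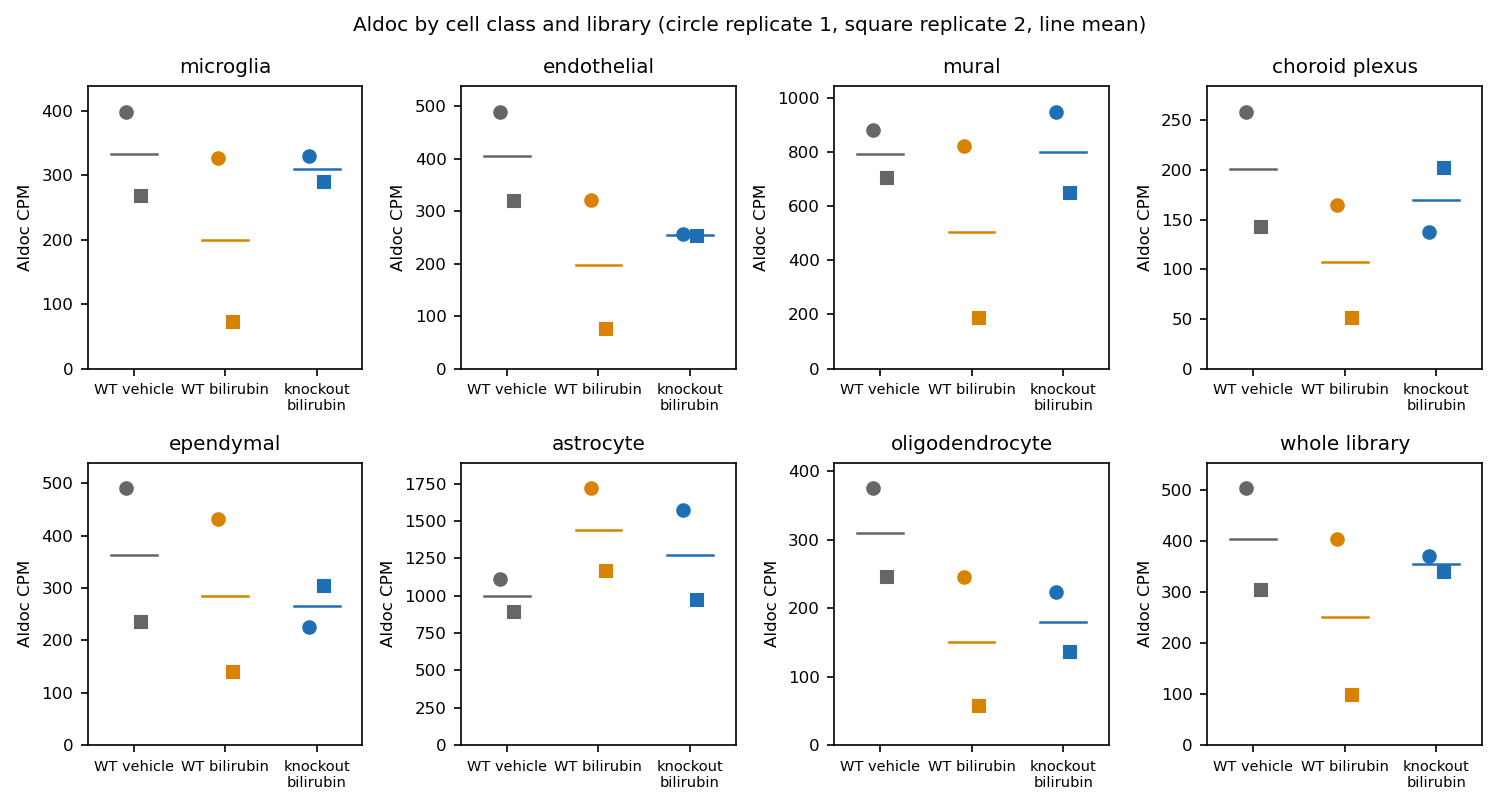
Aldoc CPM in 7 cell classes and in whole libraries, with the 3 groups along the horizontal axis, 1 point per library (circle replicate 1, square replicate 2) and a line at the mean. Vertical axes differ between panels. WT bilirubin lies above WT vehicle in astrocytes, and WT bilirubin replicate 2 is the lowest library in the 6 other classes.

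The knockout was compared with WT bilirubin to ask whether these genes differed between the 2 lines under bilirubin. As "Mg" is not spelled out, the cells that lack TRPM2 are not known here. This comparison shares the WT bilirubin libraries with the comparison above. No member passed in edgeR in 190 tests in the classes (background 0.00282 percent) or in 32 tests in whole libraries (background 0.00526 percent). At an unadjusted p under 0.05 there were 9 of 190 (4.74%, beside 3.36% of all gene tests) and 0 of 32 (beside 3.54%), and DESeq2 called 0. The 3 members with the smallest p were P4ha1, Slc2a1 and Ankrd37, each in another class.

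P4ha1 in oligodendrocytes stood at 84.1 and 44.2 CPM in WT bilirubin and 148.7 and 127.7 in the knockout, without overlap, with 58.7 and 108.1 in WT vehicle (log2 fold change 1.10, SE 0.40, edgeR adjusted p 0.805). P4ha1 was above 0 in 7 of 7 classes in this comparison. Slc2a1 in endothelial cells, with the values given above, was lower in both knockout libraries than in both of WT bilirubin (-1.14, SE 0.43, edgeR adjusted p 1.0). Per 1000 endothelial marker UMIs it was 43.2 and 74.0 in WT bilirubin and 31.5 and 38.1 in the knockout, also without overlap, and 72.1 and 47.1 in WT vehicle. Ankrd37 in choroid plexus stood at 19.6 and 8.1 CPM in WT bilirubin and 14.9 and 53.3 in the knockout, which overlap (1.26, SE 0.50, edgeR adjusted p 1.0). The medians within classes were 0.02 to 0.18 over the members and -0.02 to 0.04 over all genes. Of 210 tests of whether the knockout difference varied between classes, 0 passed in edgeR (background 0.0 percent) and 11 had an unadjusted p under 0.05 (5.24%, beside 4.37% of all gene tests).

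The knockout given bilirubin was also set against WT vehicle, so that all its libraries enter another comparison above as well. A knockout given vehicle is absent from the series, so line and treatment change together here and cannot be told apart. No member passed in edgeR in 190 tests (background 0.0127 percent), with 20 at an unadjusted p under 0.05 (10.5%, beside 6.46% of all gene tests), nor in whole libraries (background 0.0 percent), with 4 of 32 (12.5%, beside 7.09%). DESeq2 called Adm and Ankrd37 higher in whole libraries, where it called 0.28 percent of genes higher, and 0 members in classes. The values nearest to a call in the vessels were Adm, with 1.60 (SE 0.43, edgeR adjusted p 0.148), and Ankrd37, with 1.37 (SE 0.41, edgeR adjusted p 0.187). In choroid plexus Ankrd37 had 2.05 (SE 0.56, edgeR adjusted p 0.480), from 5.1 and 9.2 CPM in WT vehicle.

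Further genes of the same pathways, from lists that hold no member, were read in the class comparison, where the shares of all genes called in each class, given above, are the background. Among the other glycolysis enzymes 9 of 17 were tested, and microglia had 3 higher and 4 lower. Hk3, the myeloid hexokinase, was higher in microglia (2.74, SE 0.24), and Hkdc1, a hexokinase-like gene, in ependymal cells (3.67, SE 0.32). Bpgm, which makes bisphosphoglycerate, was higher in oligodendrocytes (2.33, SE 0.12, 179 ± 59.8 CPM). Pgm1, phosphoglucomutase, was higher in astrocytes (1.61, SE 0.15). All 4 kept their direction and their call with totals of UMIs.

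Among 8 tested carriers, Slc2a5, the fructose carrier GLUT5, was higher in microglia (3.12, SE 0.16, 77.9 ± 15.7 CPM). Bsg, the chaperone that brings MCT1 to the membrane, was higher in endothelial cells (2.62, SE 0.13). Choroid plexus had Slc16a8, the lactate carrier MCT3, at 107 ± 58.1 CPM (4.05, SE 0.16), and Slc2a12, the carrier GLUT12, at 87.7 ± 37.5 CPM (3.18, SE 0.16). It had 5 carriers higher and 2 lower, or 5 and 3 with totals. Slc2a1, the member at the blood-brain barrier, was lower in choroid plexus on both scales (-0.93 and -1.67).

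Of 9 tested genes of pyruvate dehydrogenase and its kinases, 8 were higher and 1 lower in choroid plexus (38.3 percent of all genes higher), or 5 and 1 with totals (16.1 percent higher). Astrocytes had 4 higher and 0 lower, or 6 and 0 with totals. In choroid plexus Pdk3, a pyruvate dehydrogenase kinase, led (2.05, or 1.29 with totals). The enzyme's subunit genes Pdhb (1.31, or 0.55), Dlat (1.08, or 0.31) and Pdha1 (1.03, or 0.27) followed there. Among 7 oxygen-sensing genes, Epas1, which encodes the HIF2 alpha subunit of endothelium, was higher in endothelial cells, with 459 ± 164 CPM (2.51, SE 0.13). Arnt2, a partner of HIF, was higher in oligodendrocytes (1.91, SE 0.19), and Arnt was lower in choroid plexus (-0.83). Egln2, an oxygen-sensing hydroxylase, was higher there (0.68) only with TMM scaling and had -0.07 with totals.

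Of 21 other tested HIF targets, endothelial cells and astrocytes each had 7 higher and 2 lower (all genes 16.5 and 17.5 percent higher), with medians of 0.26 and -0.10. Choroid plexus had 6 higher and 12 lower, and microglia 4 and 11. Hmox1, haem oxygenase, whose pathway makes bilirubin, was higher in microglia, with 137 ± 58.6 CPM (2.79, SE 0.13). Car12, a carbonic anhydrase, was higher in choroid plexus (3.50), as were Mif, a cytokine (1.83), and Higd1a, a mitochondrial protein gene induced by hypoxia (1.70), and these 3 remained higher with totals. In the 7-gene pentose phosphate list, Taldo1, transaldolase, was higher in oligodendrocytes, with 1072 ± 191 CPM (2.49, SE 0.08). Pgls, the lactonase (1.59), and Rpe, the epimerase (1.27), were higher in choroid plexus on both scales, and Tkt, transketolase, only with TMM (0.91, or 0.15 with totals). No gene of these 6 lists passed in edgeR for bilirubin or for the knockout.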

How the data were processed

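The authors deposited raw UMI counts, 1 matrix for each library, beside tables of barcodes and genes, which hold names only (other content). Per the submitters' processing notes the tools were Cell Ranger 8.0.0, Scanpy 1.9.6 and, with no stated role, the builds mm10 and GRCm39, and per the file headers the matrices came from Cell Ranger 9.0.1. The sources used here do not state the method of cell calling.

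The filter kept cells with 500 or more UMIs, 300 or more genes and a mitochondrial share up to 15%. Scrublet (scanpy 1.11.5) removed 14390 doublets; in WT bilirubin replicate 2 and knockout replicate 2 the cells with the highest scores were removed at the expected rate. A cell entered the class with the most markers detected, if at least 3 and 2 more than for any other class. UMIs were summed per library and class, the 2 rows of Aldoa together, and 7 of 19 classes had at least 20 cells per library. Sums were tested two-sided in R 4.3.3 with edgeR 4.0.16 (quasi-likelihood, TMM, filterByExpr) over all genes, with Benjamini and Hochberg adjustment and 3 residual degrees of freedom for groups, 30 for classes and 18 for differences between classes. DESeq2 1.42.0 was an alternative. Isozyme shares were tested with an exact sign-flip permutation test.

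The tests were tested on simulated data. Members, markers and gene lists were chosen with earlier results of these data known. Every member called, or else the 3 with the smallest p, and the 3 highest and 2 lowest called members of each class were named, as were at most 4 called genes per further list. Other values were chosen after they were seen: the endothelial members, marker-scaled values and remaining members that the text describes. Replicate numbers did not pair the libraries (correlations of same-number deviations -0.23 to 0.12), so the tests use no block.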

Additional observations from a re-analysis of the deposited data

Results flagged for a closer look

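The bilirubin difference of Aldoc in astrocytes differed from its mean in the 6 other classes by 1.58 on the log2 scale (SE 0.31, edgeR adjusted p 0.0048), by a test of that difference itself. It passed in 10 of 13 alternatives, with values of 0.75 to 2.31. It did not pass without WT vehicle replicate 1, without WT vehicle replicate 2 or without WT bilirubin replicate 2, and in the last case it was 0.75.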

How the results depend on the processing

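The 116 class calls stayed within 93 to 125 under every alternative run, and 25 of 33 named class values held in all of them; 8 lost their call somewhere (Ankrd37 in astrocytes, Slc2a3 in endothelial cells, Eno2 and Pgk1 in mural cells, Pdk1 and Vegfa in ependymal cells, Adm in microglia and Bnip3 in oligodendrocytes) and 0 changed sign. Against 0 members called for bilirubin in the classes, there were 5 with no low-count filter, 3 with DESeq2, 1 with only the 4 libraries compared, 3 with a stricter gate, 2 with a looser gate and 0 to 10 with 1 library left out. The 10 of 198 (5.05%, beside 3.08% of all genes) came when WT bilirubin replicate 1 was left out; leaving out either knockout replicate gave 5, and leaving out WT bilirubin replicate 2 gave 3. With no low-count filter 2.23% of member tests passed for bilirubin, beside 1.29% of all gene tests, and with DESeq2 1.73% beside 1.07%. With only the 4 libraries compared it was 0.53% beside 0.92%. The stricter gate gave 1.82% beside 1.14%, and the looser gate 0.96% beside 0.35%. With 1 library left out its group has a lone sample, which is assumed to vary like the other groups. Leaving out 1 library gave 0 to 7 for the knockout against WT bilirubin, where the 7 (3.54%, beside 0.692%) again lacked WT bilirubin replicate 1 and knockout replicate 1 left out gave 3. For the knockout against WT vehicle it gave 0 to 3, with 3 without knockout replicate 1, and there was 1 with no low-count filter and 1 with a looser gate. Whole libraries had 2 for bilirubin with no filter. Members whose bilirubin response differed between classes numbered 1, but 2 with no filter, a looser gate or a stricter cell filter, and 0 to 5 with 1 library left out, with 5 without WT bilirubin replicate 1 and 0 without WT bilirubin replicate 2 or either WT vehicle library. For the knockout difference this count was 0 to 2. For the bilirubin response between classes, the share was 0.89% beside 0.21% with no filter and 0.92% beside 0.35% with the looser gate. The stricter cell filter gave 1.04% beside 0.44%. The replicate block gave 2 bilirubin calls in place of 0 (1.05%, beside 1.29% of all gene tests), although the numbers do not pair the libraries. The calls were Adm (adjusted p 0.019) and Slc16a1 (0.032) in endothelial cells (edgeR). Crossing the numbers of the knockout libraries, added after seeing the data, gave 4 bilirubin calls (2.11%, beside 2.03%). It gave 1 for the knockout against WT vehicle (0.53%, beside 0.15%). Totals of UMIs in place of TMM, also added after seeing the data, gave 2 bilirubin calls (1.05%, beside 0.196%). The stricter gate and the stricter cell filter left the mural class with too few cells. With 2 libraries per group, 2-fold changes were rarely found: 3.19% in simulated endothelial sums and 11.1% in microglia.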
